A study of Homo sapiens with 12 samples.

Results

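The 10 genes described here are CYR61, CTGF, ANKRD1, AMOTL2, LATS2 and AJUBA, which are targets or regulators of the YAP pathway, the caveolin genes CAV1 and CAV2, and the annexin genes ANXA1 and ANXA2. They were taken by symbol from the 27130 genes of the deposited count table, and all 10 were found. The genes were chosen from results of these same 12 libraries across the 4 groups. Their levels, fold changes and calls are therefore given as a description, and no test was run on them as a set. The libraries were made from poly(A) RNA of the human embryonic stem cell line H1 (WA01), an established line, with 3 libraries in each group. The groups were WT cells, cells with a homozygous knockout of the zinc finger transcription factor ZNF263 (ZNF263 KO), knockout cells that also overexpressed the transcription factor ZIC2 (ZNF263 KO + ZIC2 OE), and cells that overexpressed ZNF263 (ZNF263 OE). The library names of the WT and ZNF263 KO groups carry the tag vec. Those of both knockout groups share a further tag that the WT and ZNF263 OE names lack, and its meaning is not given. The sources used here do not give whether the knockout line is 1 clone, which vectors drove the overexpression, or whether replicate libraries are separate cultures. Any p-value therefore measures the spread between these libraries, which may be technical. The series set out to examine how ZNF263 and its cofactor ZIC2 act in the regulation of pluripotency.

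YAP and its paralog TAZ (gene WWTR1) are coactivators that bind DNA through the TEAD transcription factors. The kinases LATS1 and LATS2 of the Hippo pathway phosphorylate YAP and TAZ and so keep them out of the nucleus. CYR61, CTGF and ANKRD1 are widely used as readouts of this pathway, while LATS2, AMOTL2 and AJUBA act back on it. Caveolins shape caveolae, small pits of the plasma membrane that flatten when the membrane is stretched, and annexins are proteins that bind membrane phospholipids in the presence of calcium.

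Total counts ran from 17175183 to 21804410 per library, except for ZNF263 KO replicate 1 with 43464609. ZNF263 stood at 38.2 to 40.7 CPM (counts relative to library size, scaled by TMM factors) in WT, at 30.9 to 31.2 in ZNF263 KO, at 30.1 to 35.9 in ZNF263 KO + ZIC2 OE and at 218.9 to 251.2 in ZNF263 OE. A count over the whole gene does not show whether an edited transcript still encodes the protein. ZIC2 stood at 204.7 to 212.2 CPM in WT, 151.8 to 159.2 in ZNF263 KO, 1878 to 2226 in ZNF263 KO + ZIC2 OE and 208.5 to 217.3 in ZNF263 OE. The 10 pluripotency markers, none of them at 0, summed to 9336 to 9415 CPM in WT, 9632 to 9805 in ZNF263 KO, 9267 to 9413 in ZNF263 KO + ZIC2 OE and 9551 to 9721 in ZNF263 OE. Single markers moved both ways within the sum. Mean LIN28A was 2161 CPM in WT and 2489 in ZNF263 KO, and mean L1TD1 was 1515 and 1260.

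Of the 10 genes, 9 (all but LATS2) were higher in every ZNF263 KO library than in every WT library, and the same 9 were higher in every ZNF263 KO + ZIC2 OE library than in every WT library. In ZNF263 OE the means of all 10 lay below WT, and with ZIC2 the means of all 10 lay at or below those of ZNF263 KO. Calls are from edgeR's quasi-likelihood test, at a Benjamini-Hochberg adjusted p under 0.05 over 15437 tested genes. Against WT, 9 of the 10 genes were called higher in ZNF263 KO, beside 20% of all tested genes called higher and 18.5% called lower, and 9 of 10 did not overlap, beside 23.6% higher and 23.1% lower without overlap among all genes. For ZNF263 KO + ZIC2 OE against WT, 9 of 10 were again called higher and 9 did not overlap, beside 20.3% of all genes called higher, 17.3% called lower, 25% higher without overlap and 22.3% lower without overlap. For ZNF263 OE against WT, 4 of 10 were called lower (CYR61, CTGF, AMOTL2 and CAV1) and 8 lay below WT without overlap. The shares over all genes in that comparison were 0.317% called higher, 0.447% called lower, 9.92% higher without overlap and 9.46% lower without overlap. For ZNF263 KO + ZIC2 OE against ZNF263 KO, 5 of 10 were called lower (CYR61, CTGF, CAV1, ANXA1 and ANXA2), and the same 5 did not overlap. All genes gave 4.99% called higher, 3.35% called lower, 11.3% higher without overlap and 10.5% lower without overlap there. ANKRD1 is counted among the 9 in both comparisons of a knockout group with WT. It passed the filter on low counts only through the knockout groups, so its calls there are no test of a difference. Since the genes were chosen from these comparisons, the counts are read no further. The comparisons share libraries: WT serves 3 of them and the knockout groups serve 2 each.

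**Figure D1:**
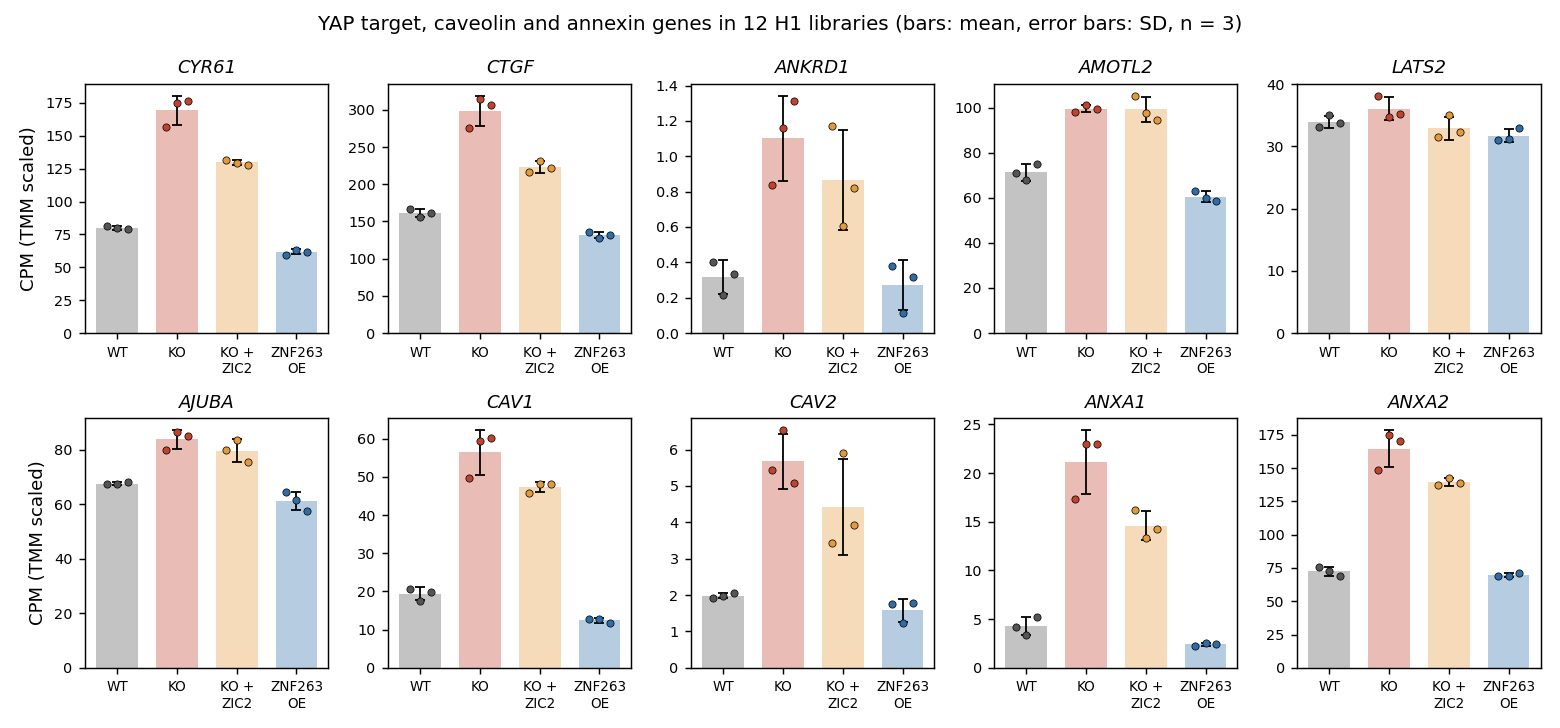
Level of each of the 10 genes in CPM (TMM scaled, linear axis from 0) in the 4 groups; points are libraries, bars are means and error bars are SD (n = 3). In 9 genes the mean stands highest in ZNF263 KO, then ZNF263 KO + ZIC2 OE, WT and ZNF263 OE, with overlap between some neighbouring groups, while the LATS2 values of neighbouring groups overlap throughout.

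CYR61 (chromosome 1, 86046444 to 86049648 on the plus strand, hg19) encodes CCN1, a secreted matricellular protein that binds integrins. It stood at 81.4, 79.6 and 78.8 CPM in the WT libraries, 156.3, 174.8 and 176.8 in ZNF263 KO, 131.6, 129.5 and 127.9 in ZNF263 KO + ZIC2 OE, and 59.7, 63.5 and 61.8 in ZNF263 OE. No group overlapped another. The difference of ZNF263 KO from WT was 1.08 on the log2 scale (SE 0.05), a 2.11-fold higher level. The KO level with ZIC2 was lower than without it by a log2 difference of -0.38 (SE 0.04), and it was still 0.70 (SE 0.05) above WT. ZNF263 OE differed from WT by -0.37 (SE 0.05).

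CTGF (chromosome 6, 132269317 to 132272518 on the minus strand, hg19) encodes CCN2, the closest relative of CCN1 among the pathway readouts and likewise secreted into the matrix. Its level was 166.6, 155.6 and 161.8 CPM in WT, 275.9, 314.8 and 305.8 in ZNF263 KO, 216.1, 231.7 and 222.1 in ZNF263 KO + ZIC2 OE, and 135.4, 128.0 and 131.8 in ZNF263 OE. The 4 groups again did not overlap. The log2 difference from WT was 0.89 (SE 0.05) in ZNF263 KO, 0.47 (SE 0.05) in ZNF263 KO + ZIC2 OE and -0.29 (SE 0.05) in ZNF263 OE, and ZNF263 KO + ZIC2 OE differed from ZNF263 KO by -0.42 (SE 0.04). Per length, CTGF was the most abundant of the 10 genes in WT, at 68.8 ± 2.34 RPKM (CPM divided by gene length in kilobases, SD, n = 3), and in ZNF263 KO it stood at 127.6 ± 8.68 RPKM. The CTGF promoter carries the TEAD motif CATTCC, shown here because TEAD factors bring YAP to DNA. Reading both strands of the 250 bases before the most upstream RefSeq start, CATTCC was found 3 times, at -169 to -164, -104 to -99 and -95 to -90, each on the strand opposite to the gene. The stretch with all 3 matches (chr6:131951452-131951551, GRCh38.p14, minus strand, RefSeq) reads 5′ to 3′ on the strand of the gene, with the matches in capitals:
CTGF: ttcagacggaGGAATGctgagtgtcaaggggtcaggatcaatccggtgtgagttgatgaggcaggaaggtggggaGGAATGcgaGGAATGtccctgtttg
Among 27305 RefSeq promoters of the same length, 12% held at least 1 CATTCC, 0.985% at least 2 and 0.0952%, or 26 promoters, at least 3.

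ANKRD1 (chromosome 10, 92671857 to 92681032 on the minus strand, hg19) encodes an ankyrin repeat protein best known from stretched muscle, which acts in the nucleus and at the sarcomere. It was the least abundant of the genes, at 0.404, 0.213 and 0.333 CPM in WT and 0.382, 0.111 and 0.318 in ZNF263 OE. In ZNF263 KO it stood at 0.839, 1.16 and 1.31 CPM, and in ZNF263 KO + ZIC2 OE at 1.17, 0.607 and 0.82. The knockout groups lay above WT and ZNF263 OE, which overlapped each other, and the knockout groups overlapped too. ANKRD1 passed the filter on low counts only through the knockout groups, since no WT or ZNF263 OE library reached the count minimum. The ratios and calls of the knockout groups against WT therefore describe the counts and are no test of a difference. Over the pooled libraries of each group, 86 counts in ZNF263 KO stood against 18 in WT, a ratio of 3.27 per scaled depth with an exact 95% interval of 1.95 to 5.78 that covers counting error only. The ratio of ZNF263 KO + ZIC2 OE to WT was 2.77 (1.58 to 5.06), and that of ZNF263 KO + ZIC2 OE to ZNF263 KO was 0.847 (0.582 to 1.22). A difference of ZNF263 OE from WT was not detectable at this depth, with a ratio of 0.868 (0.414 to 1.80), and the fitted log2 difference of -0.20 (SE 0.52) changed sign without ZNF263 OE replicate 2 (0.14). The ANKRD1 promoter held 2 CATTCC matches, at -220 to -215 (chr10:90921292-90921317) and at -128 to -123 (chr10:90921200-90921225, in an exon of ANKRD1 in GENCODE v29), both GRCh38.p14, minus strand. They are shown to set beside those of CTGF, on the strand of the gene with the match in capitals:
ANKRD1 distal match: caccaccaaaGGAATGgccctctcac
ANKRD1 proximal match: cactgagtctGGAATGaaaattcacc
As in CTGF, each match lies on the strand opposite to the gene.

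AMOTL2 (chromosome 3, 134074187 to 134094259 on the minus strand, hg19) encodes an angiomotin that binds YAP at cell junctions and is itself induced by YAP. It stood at 70.9, 67.9 and 75.2 CPM in WT, 98.1, 101.3 and 99.3 in ZNF263 KO, 105.4, 97.7 and 94.5 in ZNF263 KO + ZIC2 OE, and 63.2, 59.7 and 58.7 in ZNF263 OE. Both knockout groups lay above WT by 0.48 (SE 0.05) on the log2 scale and overlapped each other, with means of 99.6 and 99.2 CPM. The fitted difference between them was within 0.01 of 0 and changed sign without ZNF263 KO replicate 2 (0.01) or ZNF263 KO + ZIC2 OE replicate 2 (0.01) or 3 (0.03). The ZNF263 OE libraries lay below WT without overlap, by a log2 difference of -0.24 (SE 0.05). That call was lost without WT replicate 1 or 3, or without ZNF263 OE replicate 2 or 3, with differences of -0.24, -0.20, -0.23 and -0.22.

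AJUBA (chromosome 14, 23440383 to 23451851 on the minus strand, hg19), a LIM domain protein that binds and restrains the LATS kinases, varied less. Its level was 67.3, 67.4 and 68.2 CPM in WT, 80.0, 86.4 and 85.1 in ZNF263 KO, 79.8, 83.8 and 75.6 in ZNF263 KO + ZIC2 OE, and 64.4, 61.7 and 57.7 in ZNF263 OE. The knockout groups overlapped each other and lay above WT by 0.31 (SE 0.05) and 0.24 (SE 0.05) on the log2 scale. ZNF263 OE lay below WT without overlap, at -0.14 (SE 0.05), and was not called.

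LATS2 (chromosome 13, 21547176 to 21635722 on the minus strand, hg19), the kinase that phosphorylates YAP and is also induced by it, was the gene of the 10 that was called in no comparison. It stood at 33.2, 35.1 and 33.7 CPM in WT, 38.2, 34.7 and 35.3 in ZNF263 KO, 31.5, 35 and 32.3 in ZNF263 KO + ZIC2 OE, and 31.0, 31.2 and 32.9 in ZNF263 OE. ZNF263 KO overlapped WT, with a log2 difference of 0.09 (SE 0.06). ZNF263 OE lay just below WT without overlap, at -0.10 (SE 0.06), and ZNF263 KO + ZIC2 OE differed from ZNF263 KO by -0.14 (SE 0.06). LATS1, its paralog, was 46.6 ± 1.49 CPM in WT and 43.6 ± 2.02 in ZNF263 KO (SD, n = 3). Per length, the ratio of LATS2 to LATS1 within a library was 0.989 to 1.11 in WT, 1.14 to 1.23 in ZNF263 KO, 1.10 to 1.26 in ZNF263 KO + ZIC2 OE and 1.03 to 1.07 in ZNF263 OE.

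CAV1 (chromosome 7, 116164839 to 116201239 on the plus strand, hg19) encodes caveolin-1, the main scaffold protein of caveolae outside muscle. It stood at 20.7, 17.5 and 19.9 CPM in WT, 49.7, 59.4 and 60.1 in ZNF263 KO, 45.8, 48.1 and 48.1 in ZNF263 KO + ZIC2 OE, and 12.8, 12.9 and 11.6 in ZNF263 OE. No group overlapped another. ZNF263 KO was 2.89-fold above WT, a log2 difference of 1.53 (SE 0.07), and ZNF263 OE differed from WT by -0.64 (SE 0.09). With ZIC2 the level was 1.29 (SE 0.08) above WT and differed from ZNF263 KO by -0.24 (SE 0.07). The call of that last difference was lost when only these 2 groups were fitted (-0.24), without ZNF263 KO replicate 3 (-0.19) and without ZNF263 KO + ZIC2 OE replicate 1 (-0.22).

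CAV2 (chromosome 7, 116139655 to 116148595 on the plus strand, hg19), which lies beside CAV1 in the same orientation and encodes a caveolin that assembles with caveolin-1, was far lower. It stood at 1.91, 1.97 and 2.05 CPM in WT, 5.43, 6.53 and 5.08 in ZNF263 KO, 3.44, 5.91 and 3.92 in ZNF263 KO + ZIC2 OE, and 1.75, 1.22 and 1.77 in ZNF263 OE. Pooled, 466 counts in ZNF263 KO against 113 in WT gave a ratio of 2.82 (2.29 to 3.50), close to the fitted log2 difference of 1.5 (SE 0.18). The ZIC2 group overlapped ZNF263 KO, with a log2 difference of -0.35 (SE 0.16) that was called only without ZNF263 KO + ZIC2 OE replicate 2 (-0.62). ZNF263 OE lay below WT without overlap at -0.31 (SE 0.25), and its pooled ratio of 0.804 (0.604 to 1.07) did not separate the groups beyond counting error. Per length, CAV1 exceeded CAV2 by 8.01 to 9.83 times in WT, 8.22 to 10.7 in ZNF263 KO, 7.36 to 12 in ZNF263 KO + ZIC2 OE and 5.93 to 9.57 in ZNF263 OE. These ranges overlapped between all 4 groups.

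ANXA1 (chromosome 9, 75766647 to 75785310 on the plus strand, hg19) encodes annexin A1, a membrane-binding protein that also acts outside the cell as a ligand of formyl peptide receptors. It showed the widest span of the 10 genes. Its level was 4.22, 3.41 and 5.19 CPM in WT, 17.3, 23.0 and 23.0 in ZNF263 KO, 16.2, 13.3 and 14.2 in ZNF263 KO + ZIC2 OE, and 2.24, 2.55 and 2.45 in ZNF263 OE. No group overlapped another. ZNF263 KO stood 4.79-fold above WT, a log2 difference of 2.26 (SE 0.13), and the pooled counts of 1671 and 246 gave a ratio of 4.65 (4.07 to 5.34). The ZIC2 group was 1.76 (SE 0.15) above WT and differed from ZNF263 KO by -0.50 (SE 0.11). ZNF263 OE differed from WT by -0.83 (SE 0.21), with a pooled ratio of 0.56 (0.452 to 0.691). That difference was not called in the fit used here and was called by DESeq2, with no filter on low counts, with only the 2 groups fitted, with offsets for GC content and length, and without WT replicate 2, at log2 differences of -0.83, -0.84, -0.83, -0.80 and -0.97.

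ANXA2 (chromosome 15, 60639350 to 60690185 on the minus strand, hg19) encodes annexin A2, which forms a heterotetramer with S100A10 at the plasma membrane. It stood at 75.9, 72.5 and 68.8 CPM in WT, 148.8, 174.6 and 170.4 in ZNF263 KO, 137.2, 142.7 and 139.0 in ZNF263 KO + ZIC2 OE, and 68.9, 68.6 and 71.5 in ZNF263 OE. ZNF263 KO was 2.27-fold above WT, a log2 difference of 1.18 (SE 0.05), and ZNF263 KO + ZIC2 OE was 0.95 (SE 0.05) above WT and differed from ZNF263 KO by -0.23 (SE 0.05). ZNF263 OE overlapped WT, with a difference of -0.05 (SE 0.06). ANXA2 has near-identical processed copies, and the counts are of uniquely aligned reads. ANXA2P2 held 157 counts over all 12 libraries, ANXA2P1 36 and ANXA2P3 1, so reads that match both a copy and the gene are missing from the ANXA2 values to an extent not known here. Per length, ANXA2 exceeded ANXA1 by 11.2 to 18 times in WT, 6.28 to 7.31 in ZNF263 KO, 7.17 to 9.10 in ZNF263 KO + ZIC2 OE and 22.8 to 26.1 in ZNF263 OE, so the annexins did not move in proportion.

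**Figure D2:**
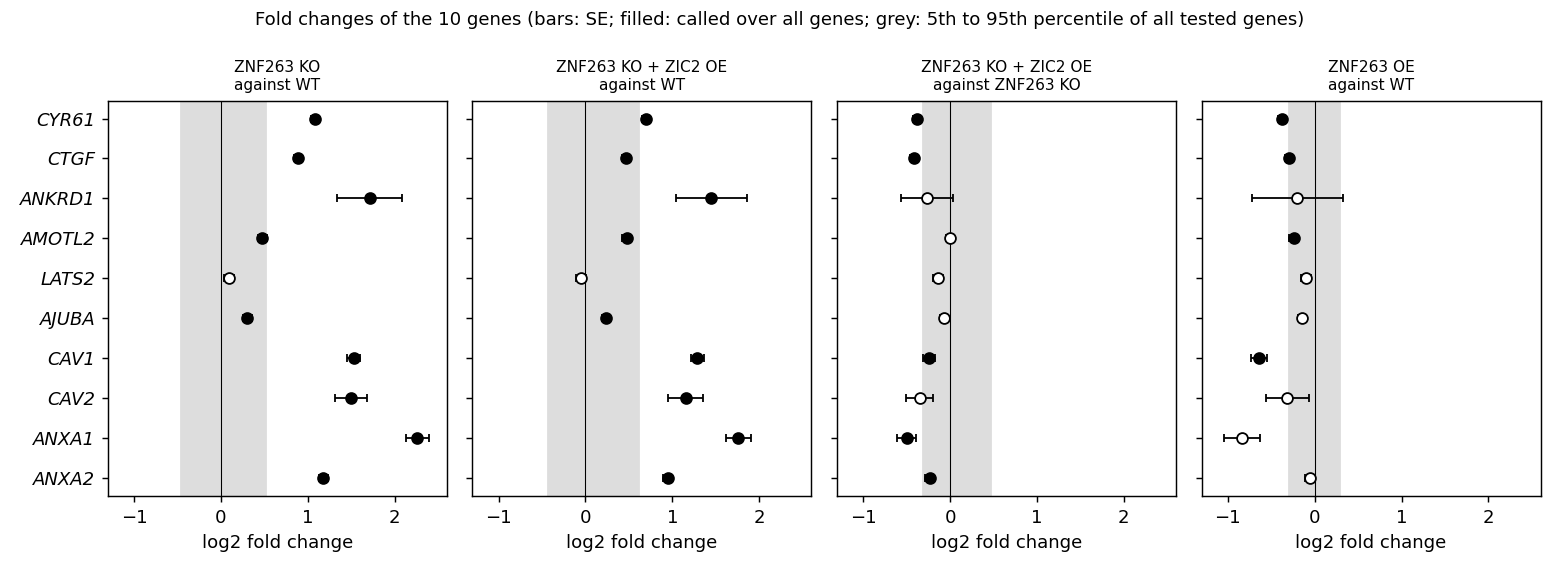
Log2 fold change of the 10 genes in each of the 4 comparisons from the edgeR fit (bars: SE; filled points: called over all tested genes; grey band: 5th to 95th percentile of all tested genes). For ZNF263 KO against WT, CYR61, CTGF, ANKRD1, CAV1, CAV2, ANXA1 and ANXA2 lie above the band, from 0.89 for CTGF to 2.26 for ANXA1, while AMOTL2, LATS2 and AJUBA lie within it.

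The median log2 difference over the 10 genes was 1.13 for ZNF263 KO against WT (range 0.09 to 2.26), 0.82 for ZNF263 KO + ZIC2 OE against WT (-0.05 to 1.76), -0.25 for ZNF263 KO + ZIC2 OE against ZNF263 KO (-0.50 to -0.00) and -0.27 for ZNF263 OE against WT (-0.83 to -0.05). The medians over all tested genes lay within 0.01 of 0 in each comparison. The order of the group means was ZNF263 KO, ZNF263 KO + ZIC2 OE, WT and ZNF263 OE for 9 genes. All neighbours in that order were free of overlap for CYR61, CTGF, CAV1 and ANXA1. ZNF263 KO and ZNF263 KO + ZIC2 OE overlapped for ANKRD1, AMOTL2, AJUBA and CAV2, and WT and ZNF263 OE overlapped for ANKRD1 and ANXA2. The ratio of CTGF to CYR61 per length was 1.91 to 2.01 in WT, 1.69 to 1.76 in ZNF263 KO, 1.61 to 1.75 in ZNF263 KO + ZIC2 OE and 1.97 to 2.22 in ZNF263 OE, so CYR61 stood higher relative to CTGF in both knockout groups.

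Replicate 1 of ZNF263 KO, the deepest library, had the lowest CPM of its group for 8 of the 10 genes (all but LATS2 and CAV2), and for 33.7% of all tested genes. Without it, the log2 difference of ZNF263 KO from WT was 1.14 for CYR61, 0.94 for CTGF, 1.62 for CAV1, 2.41 for ANXA1 and 1.25 for ANXA2, each further from 0 than with it. The difference of ZNF263 KO + ZIC2 OE from ZNF263 KO also moved away from 0, to -0.44 for CYR61, -0.48 for CTGF, -0.34 for CAV1, -0.66 for ANXA1 and -0.31 for ANXA2. ANKRD1 moved from 1.72 to 1.95 and from -0.26 to -0.50, while LATS2 moved toward 0 in both comparisons, from 0.09 to 0.04 and from -0.14 to -0.09. For AMOTL2, AJUBA and CAV2 the values without it were 0.49, 0.34 and 1.54 against WT, and -0.02, -0.11 and -0.39 for ZNF263 KO + ZIC2 OE against ZNF263 KO. Mitochondrial transcripts took 1.36 to 1.4% of counts in WT, 1.11 to 1.16% in ZNF263 KO, 0.963 to 1.13% in ZNF263 KO + ZIC2 OE and 1.36 to 1.44% in ZNF263 OE. The ribosomal RNA precursor entry RNA45S5 took 0.0471 to 0.0729% in WT, 0.1225 to 0.257% in ZNF263 KO, 0.0791 to 0.1764% in ZNF263 KO + ZIC2 OE and 0.0543 to 0.081% in ZNF263 OE. Their part in the differences was not tested.

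The promoters of 9 of the genes were matched in the RefSeq table (GRCh38.p14); that of CYR61 was not. CATTCC was found in 2 of the 9 (CTGF and ANKRD1), beside 12% of 27305 promoters. GGAGGA, the repeated core of the ZNF263 motif, was found in 5 of 9 (CTGF, ANKRD1, LATS2, ANXA1 and ANXA2), beside 31.2% of promoters. The ZIC motif CAGCAGG was found in 2 (ANKRD1 and LATS2), beside 8.39%, and the AP-1 motif TGANTCA in 2 (ANKRD1 and ANXA2), beside 6.57%. The CArG box, bound by serum response factor, was found in 0 of 9, beside 1.15%. Both strands were searched for each motif. In CTGF, the GGAGGA matches at -172 to -167 and -107 to -102 share bases with the TEAD matches at -169 to -164 and -104 to -99. The GGAGGA matches of LATS2 (chr13:21061645-21061670, minus strand), ANXA1 (chr9:73151646-73151671, plus strand) and ANXA2 (chr15:60398017-60398042, minus strand, in an exon of ANXA2 in GENCODE v29) are shown because these promoters held GGAGGA and no CATTCC. Each is given on the strand of its gene with the match in capitals, from GRCh38.p14:
LATS2: gagcggccgcGGAGGAgcaggggccg
ANXA1: aaataaagagGGAGGAaaaatcagcc
ANXA2: cctcgcctagGGAGGAtgtggcgggt
CAV1, CAV2, AMOTL2 and AJUBA held none of these motifs in the window. All of the 9 windows but that of LATS2 overlapped an exon in GENCODE v29, so they are not purely upstream sequence. A match is a string of letters and no measurement of binding.

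**Figure D3:**
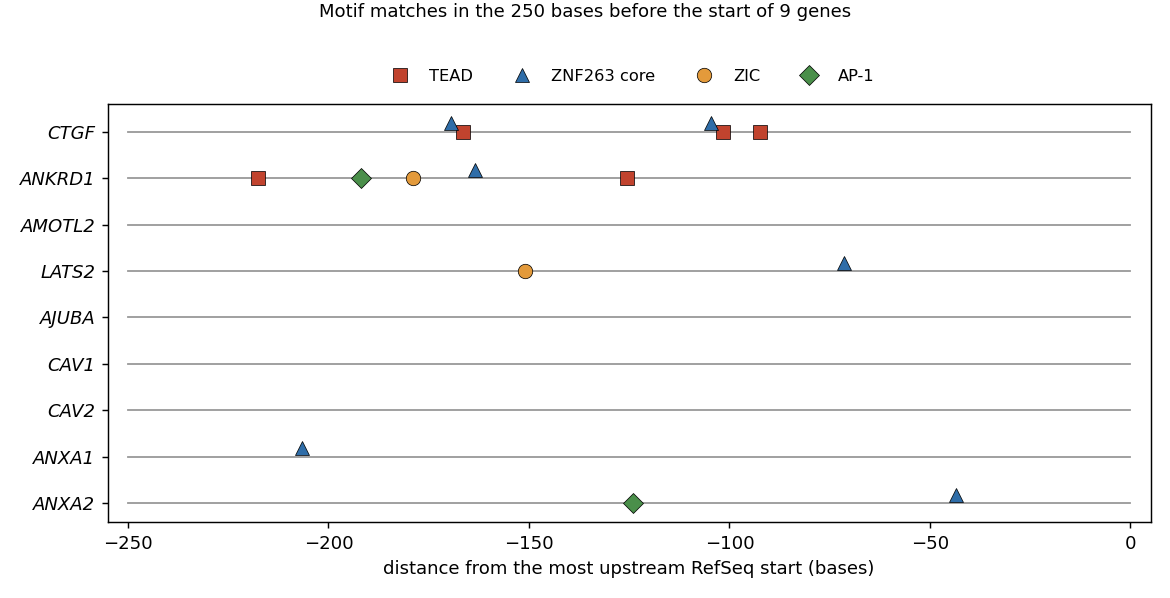
Positions of motif matches in the 250 bases before the most upstream RefSeq start of 9 genes (axis: distance from that start in bases; symbols: motif; both strands). CTGF holds 3 TEAD matches and ANKRD1 holds 2, and the AMOTL2, AJUBA, CAV1 and CAV2 windows hold none of the motifs.

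In ZNF263 KO, YAP1 was called lower than in WT, WWTR1, TEAD2, TEAD3 and TEAD4 were called higher, and TEAD1 was not called. Of the 10 listed YAP, TAZ, TEAD and VGLL genes, 8 were tested, 5 were called higher and 1 lower in ZNF263 KO against WT (5 and 1 by DESeq2), beside 20% and 18.5% of all tested genes, with a median of 0.16. TEAD3 rose from 45.4 ± 1.59 to 66.0 ± 0.345 CPM (SD, n = 3; log2 difference 0.54, edgeR adjusted p = 2.57e-09), and TEAD4 rose from 80.9 ± 1.05 to 114.1 ± 5.50 CPM (0.50, edgeR adjusted p = 1.25e-08). WWTR1, which encodes TAZ, rose from 26.6 ± 1.59 to 32.1 ± 1.02 CPM (0.28, edgeR adjusted p = 0.000467), and TEAD2 rose by 0.11 on the log2 scale (edgeR adjusted p = 0.0170). YAP1 fell from 243.0 ± 5.15 to 215.3 ± 8.27 CPM (-0.17, edgeR adjusted p = 0.000872). TEAD1 stood at 170.5 ± 11.6 CPM in WT and 156.4 ± 12.9 in ZNF263 KO (edgeR adjusted p = 0.0736). Per length, TEAD2 was the most abundant TEAD gene in WT at 92.3 RPKM, followed by TEAD4 at 37.4, TEAD1 at 18.1 and TEAD3 at 15.2. In ZNF263 KO + ZIC2 OE against WT, 5 were called higher and 2 lower (YAP1 and TEAD1), beside 20.3% and 17.3% of all tested genes, with a median of 0.18. Against ZNF263 KO, edgeR called none of the 8 with ZIC2, 0 passed an unadjusted p under 0.05 and DESeq2 called 0. Of all tested genes, edgeR called 4.99% higher and 3.35% lower there.

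The Hippo kinases and their regulators were called in both directions. All 18 were tested, and in ZNF263 KO against WT 5 were called higher and 5 lower, with a median of -0.03. Over all tested genes the shares were 20% and 18.5%, so the list lay near the background, and DESeq2 called 5 higher and 3 lower. FRMD6, a FERM domain protein that acts upstream of the kinases, rose from 18.8 to 25.6 CPM (0.45, edgeR adjusted p = 1.32e-05), WTIP, a relative of AJUBA, rose from 20.4 to 27.9 CPM (0.45, edgeR adjusted p = 1.67e-05), and NF2, the scaffold merlin, rose from 30.4 to 36.8 CPM (0.28, edgeR adjusted p = 0.000346). The falling genes were STK3, STK4, MOB1B, TAOK1 and WWC2, by -0.27 to -0.13 on the log2 scale, and the calls of STK3 and WWC2 were lost in DESeq2. The fall of MOB1B was not seen with offsets for GC content and length, at 0.01 on that scale. LATS1 differed by -0.09 (edgeR adjusted p = 0.146). With ZIC2, 3 were higher and 5 lower than in WT, beside 20.3% and 17.3% of all tested genes. FRMD6 fell against ZNF263 KO (-0.27, edgeR adjusted p = 0.00822) and WWC1 rose (0.18, edgeR adjusted p = 0.0167).

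Among 17 other genes described as YAP targets, 16 were tested, and 10 rose and 0 fell in ZNF263 KO against WT, beside 20% and 18.5% of all tested genes, with a median of 0.31 (at an unadjusted p under 0.05, 10 rose and 1 fell, and DESeq2 called 9 and 0). DOCK5, an exchange factor for Rac, rose from 23.5 ± 2.22 to 35.9 ± 4.15 CPM (SD, n = 3; 0.62, edgeR adjusted p = 1.51e-06). CRIM1, a membrane protein that binds BMPs, rose from 42.2 ± 1.14 to 53.3 ± 0.521 CPM (0.34, edgeR adjusted p = 6.55e-06), and NUAK2, a kinase, rose from 23.2 ± 1.10 to 33.8 ± 3.49 CPM (0.53, edgeR adjusted p = 7.33e-06). ASAP1, F3, IGFBP3, NT5E, TGFB2 and RBMS3 were not called. With ZIC2, 11 were higher than in WT and 0 lower, beside 20.3% and 17.3% of all tested genes, with a median of 0.32 (12 and 0 unadjusted, 11 and 0 by DESeq2). Against ZNF263 KO, IGFBP3 rose (0.46, edgeR adjusted p = 0.000225) and NT5E rose (1.35, edgeR adjusted p = 0.000439), and 0 fell (3 unadjusted, 0 by DESeq2), where CYR61 and CTGF were lower. Of all tested genes, 4.99% were called higher and 3.35% lower in that comparison.

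Caveolae also need cavins, which coat the pit, and EHD and PACSIN proteins, which shape its neck. Of 9 such genes 7 were tested, and 5 rose and 1 fell in ZNF263 KO against WT, beside 20% and 18.5% of all tested genes, with a median of 0.47. PTRF, which encodes cavin-1, rose from 47.9 ± 0.900 to 77.3 ± 6.92 CPM (SD, n = 3; 0.68, edgeR adjusted p = 3.43e-09), PRKCDBP (cavin-3) rose by 0.55 (edgeR adjusted p = 2.40e-06) and PACSIN3 rose by 0.54 (edgeR adjusted p = 5.15e-06). MURC, which encodes cavin-4, fell in the edgeR fit (-0.30, edgeR adjusted p = 0.0227). Its libraries overlapped, at 11.9 to 14.2 CPM in WT and 10.1 to 12.4 in ZNF263 KO, and DESeq2 called 5 higher and 0 lower and so did not call it. In ZNF263 OE, PTRF stood at 51.5 ± 2.14 CPM, beside the lower CAV1 level there. With ZIC2 against WT, 6 were higher and 1 lower, beside 20.3% and 17.3% of all tested genes, and PTRF stood at 72.4 ± 2.12 CPM. Against ZNF263 KO, EHD4 rose (0.20, edgeR adjusted p = 0.00806) and PACSIN3 fell (-0.27, edgeR adjusted p = 0.0193).

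Of 12 other annexins, 7 were tested, and 2 rose and 0 fell in ZNF263 KO against WT, with a median of 0.09 (3 and 0 unadjusted, 2 and 0 by DESeq2), beside 20% of all tested genes called higher and 18.5% called lower. ANXA3 rose from 24.0 ± 1.4 to 43.6 ± 5.33 CPM (SD, n = 3; 0.85, edgeR adjusted p = 7.89e-09), and ANXA11 rose by 0.28 (edgeR adjusted p = 0.000184). ANXA3 fell in ZNF263 OE to 18.1 ± 0.830 CPM (-0.41, edgeR adjusted p = 0.0194), and was the 1 gene of the pathway lists called in that comparison. Over all 61 tested genes of the pathway lists, edgeR called 0 higher and 1 lower in ZNF263 OE, and DESeq2 called 0 and 1. Of all tested genes, edgeR called 0.317% higher and 0.447% lower. At an unadjusted p under 0.05, 2 of the 61 were higher and 10 lower, beside 1630 of all 15437 tested genes in either direction. With ZIC2 against ZNF263 KO, ANXA5 rose (0.24, edgeR adjusted p = 0.000432) and ANXA9 rose (0.79, edgeR adjusted p = 0.000643), where ANXA1 and ANXA2 were lower.

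S100A10, the partner of annexin A2, rose from 26.3 ± 2.42 CPM in WT to 56.9 ± 6.39 in ZNF263 KO (SD, n = 3; log2 difference 1.10, edgeR adjusted p = 7.35e-10), beside 1.18 for ANXA2. It fell with ZIC2 to 45.9 ± 3.13 CPM (-0.30 against ZNF263 KO, edgeR adjusted p = 0.0160), beside -0.23 for ANXA2, and stood at 24.6 ± 2.94 CPM in ZNF263 OE (-0.09 against WT, edgeR adjusted p = 0.808). S100A11, a partner of annexin A1, stood at 49.0 ± 3.58 CPM in WT and 50.0 ± 1.79 in ZNF263 KO (0.03, edgeR adjusted p = 0.752), but with offsets for GC content and length the difference was -0.16 (edgeR adjusted p = 0.0283). The formyl peptide receptor genes FPR1, FPR2 and FPR3 did not pass the filter on low counts.

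**Figure D4:**
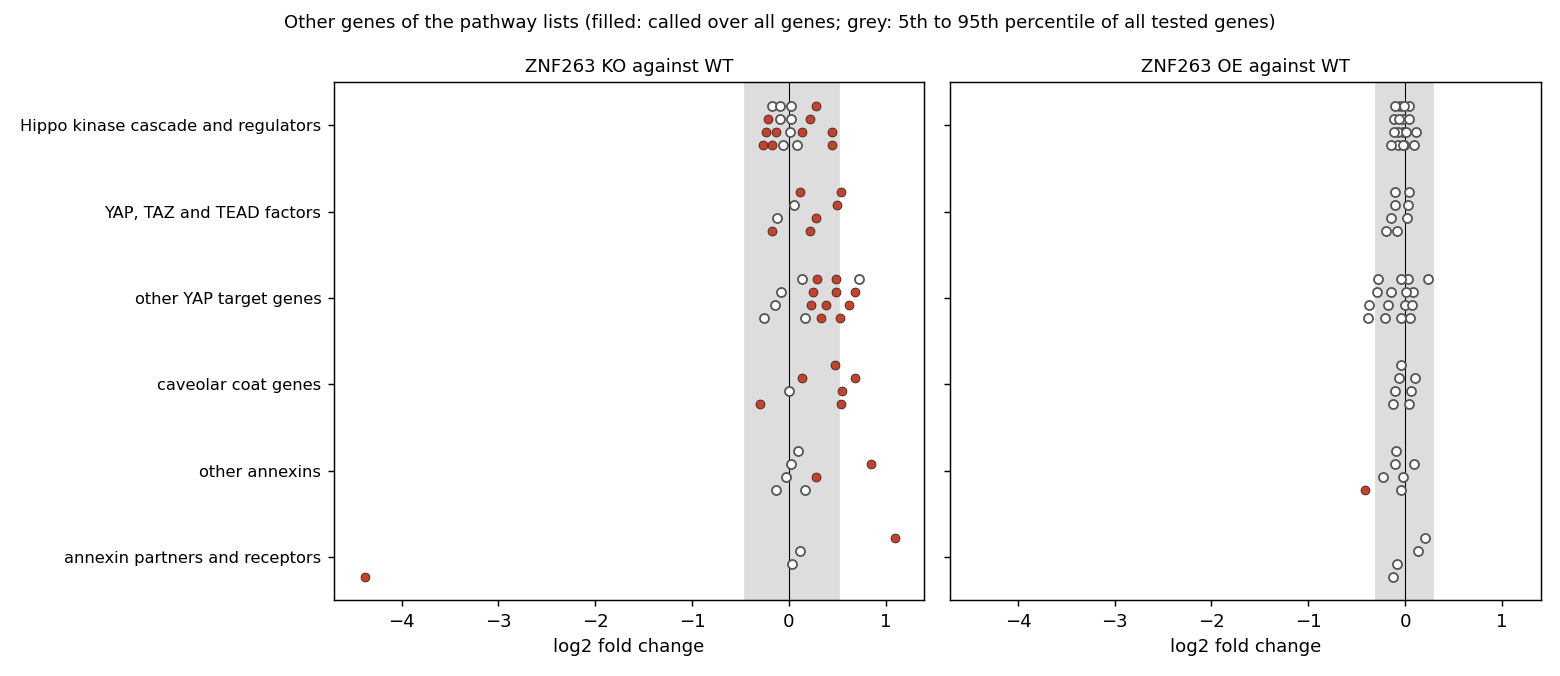
Log2 fold change of each tested gene of 6 pathway lists, the 10 genes above left out, for ZNF263 KO against WT and ZNF263 OE against WT (filled points: called over all tested genes; grey band: 5th to 95th percentile of all tested genes). In ZNF263 KO most called genes of the YAP target and caveolar lists lie right of 0 and the Hippo list lies on both sides, while in ZNF263 OE ANXA3 is the 1 filled point.

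By the distance between centred group means over the 4 groups, the genes most like a member were TAC1, RBMS2 and JUN for CYR61 (root mean square distances of 0.036, 0.045 and 0.071 on the log2 scale). For CTGF they were PDE4D, ADAMTS5 and NRP1 (0.029, 0.045 and 0.060), and for AMOTL2 they were FHL3, FOXO3 and PRKD1 (0.019, 0.019 and 0.023). CAV1 was closest to NODAL, TAGLN and DUSP8 (0.070, 0.072 and 0.087), and CAV2 to LCP1, TFAP2C and COL12A1 (0.053, 0.053 and 0.059). For ANKRD1 they were TFAP2C, CNN1 and LCP1 (0.062, 0.071 and 0.074). The ANKRD1 means rest on 18 pooled counts in WT and 16 in ZNF263 OE, so its distances carry a large counting error. ANXA2 was closest to S100A10, MYL9 and LIMCH1 (0.054, 0.070 and 0.072). ANXA1 had no gene as near, with RGS9, CYTOR and CER1 at 0.203, 0.258 and 0.259. LATS2 and AJUBA spanned 0.18 and 0.45 and were left out, since a span of at least 0.5 was asked.

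YAP targets, caveolins and annexins are abundant in fibroblasts and other mesenchymal cells, so markers of other cell types are given beside the levels above. In bulk RNA, more cells of a type and more RNA per cell cannot be told apart. The 10 fibroblast markers summed to 322.5 to 343.9 CPM in WT, 405.7 to 419.2 in ZNF263 KO, 497.4 to 560.9 in ZNF263 KO + ZIC2 OE and 331.3 to 338.7 in ZNF263 OE. COL3A1, DCN, LUM, TWIST1 and TWIST2 were under 1 CPM in every group, DCN was at 0 in WT, LUM was at 0 in ZNF263 KO + ZIC2 OE, and both were at 0 in ZNF263 OE. The most abundant of these markers with ZIC2 was COL1A1, at 69.2 CPM in WT, 110.5 in ZNF263 KO, 210.6 in ZNF263 KO + ZIC2 OE and 64.9 in ZNF263 OE. Of the 7 tested fibroblast markers, 5 were called higher and 0 lower in ZNF263 KO against WT, beside 20% and 18.5% of all tested genes. With ZIC2 against ZNF263 KO, 2 were called higher (COL1A1 and COL1A2) and 0 lower, beside 4.99% and 3.35% of all tested genes. FBLN1 stood at 171.5 CPM with ZIC2 and 181.9 in ZNF263 KO. The 9 mesoderm markers summed to 135.8 to 138.8 CPM in WT, 100.8 to 121.2 in ZNF263 KO, 93.1 to 100.7 in ZNF263 KO + ZIC2 OE and 146.5 to 151.5 in ZNF263 OE. That sum was mostly KDR, at 128.8 CPM in WT and 99.2 in ZNF263 KO. Of the 5 tested mesoderm markers KDR was called lower there, while MIXL1 (1.16 to 2.05 CPM) and PDGFRA (5.63 to 8.02 CPM) were called higher. The shares over all tested genes were again 20% higher and 18.5% lower. The 8 endoderm markers summed to 6.35 to 7.28 CPM in WT, 9 to 10.2 in ZNF263 KO, 9.25 to 10.2 in ZNF263 KO + ZIC2 OE and 4.38 to 5.62 in ZNF263 OE, with SOX17 at 0 in WT. The 10 amnion and trophectoderm markers summed to 8.53 to 8.80, 9.27 to 11.8, 12.5 to 12.6 and 10.4 to 11 CPM in the same order, and the 8 neuroectoderm markers to 44.3 to 55.0, 21.3 to 25.7, 28.1 to 34.7 and 54.1 to 55.6 CPM, most of it MAP2 (45.2 CPM in WT and 19.3 in ZNF263 KO). In ZNF263 KO against WT, 1 of 2 tested endoderm markers was called higher and 0 lower, beside the same shares. Of 5 tested amnion and trophectoderm markers, 2 were called higher and 1 lower, and of 5 tested neuroectoderm markers, 0 higher and 4 lower. No WT library of GATA3 or of the fibroblast marker TWIST1 reached the count minimum of the filter (highest 0.333 and 0.476 CPM). The same held for VTCN1 and LHX2 in ZNF263 KO (highest 0.187 and 0.373 CPM), and SIX3 averaged 0.275 CPM there. These genes passed the filter through other groups, so any call of them here describes the counts and is no test of a difference. Of the 10 pluripotency markers, 5 were called higher and 2 lower. The part of these cell types in the differences of the 10 genes was not tested.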

How the data were processed

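The deposited values are raw counts of reads for each gene in 12 libraries, not normalized by the authors, and per the file headers these came from files of uniquely aligned reads. STAR, featureCounts, DESeq2 and hg19 are named in the submitters' processing notes, with no versions or settings. Unique alignment lowers genes with near-identical copies, and the NEBNext Ultra II RNA kit, per the labels' protocols, does not mark strand. Counts were filtered with filterByExpr of edgeR 4.0.16 (R 4.3.3; minimum count 10, minimum total 15), which left 15437 genes, and scaled by TMM. One quasi-likelihood fit of all 12 libraries used the group as its only term (residual degrees of freedom 8, common biological coefficient of variation 0.0397). Benjamini-Hochberg adjustment ran over all tested genes of a comparison, and a gene was called under 0.05. RPKM used the gene lengths of the table. Totals of 17175183 to 43464609 counts set the precision, and exact 95% intervals cover counting error only. Replicates of a group differed beyond counting error (chi-square 1.38 to 10.7 per gene), so none was merged in the fit. Pooled counts and their ratios sum the libraries of a group, and their intervals leave that spread out. The fit was tested on simulated data.

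The 10 genes and the pathway and marker lists were chosen with earlier results of these data known. Of each list, at most 3 genes called with the smallest adjusted p were named per comparison, besides YAP1, WWTR1, TEAD1 to TEAD4, LATS1, S100A10, S100A11 and PTRF. Other list genes, named as the members of a small count or as genes not called, were picked after their values were seen. Genes most like a member needed at least 5 CPM in the highest group (pseudocount 0.1 CPM). Alternatives were RLE scaling, DESeq2 1.42.0, no filter, only the 2 groups compared, offsets for GC content and length (mgcv 1.9.3; GC known for 95.2% of tested genes), a replicate block, and each library left out.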

Additional observations from a re-analysis of the deposited data

How the results depend on the processing

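Of 479 alternative values of the 10 genes' fold changes, 460 kept their direction and side of the threshold, 8 lost and 7 gained a call, 4 uncalled values moved and 0 called values turned. The 9 genes called higher in ZNF263 KO against WT were 9 under each of the 12 alternatives. The alternatives refit the counts from which the genes were chosen, so a kept call shows dependence on the processing only. The 9 of ZNF263 KO + ZIC2 OE against WT became 8 without ZNF263 KO + ZIC2 OE replicate 1, where ANKRD1 stood at 1.16 and was not called. The 5 called lower with ZIC2 against ZNF263 KO ranged from 4 to 6, where LATS2 was added under GC and length offsets (-0.16), and the 4 called lower in ZNF263 OE from 3 to 5.

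For ZNF263 OE against WT, 118 of all genes were called, 220 with no filter, 431 with only the 2 groups fitted and 234 with GC and length offsets. Leaving out 1 library gave 50 to 77, with 50 without ZNF263 OE replicate 2 or 3, 77 without its replicate 1, and 66, 61 and 56 without WT replicates 1, 2 and 3. For ZNF263 KO + ZIC2 OE against ZNF263 KO, 1288 were called, 1971 with the offsets, and 842 to 1476 with 1 library left out, the lowest without ZNF263 KO + ZIC2 OE replicate 1. The offsets turned 5 list values: S100A11 (-0.16) and MOB1B (0.00518) in ZNF263 KO against WT, and MOB1A (0.12), MOB1B (0.0422) and LATS1 (0.00631) in ZNF263 KO + ZIC2 OE against WT. The cause was not tested.

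With the replicate number as a block the 10 genes' counts of calls were again 9, 4, 5 and 9, and all genes called numbered 5845 for ZNF263 KO, 108 for ZNF263 OE, 1244 for ZIC2 against ZNF263 KO and 5691 for ZIC2 against WT. Same-numbered libraries correlated at -0.095 to 0.0983, so the numbers do not pair the libraries, and 2, 2, 4 and 0 of 6 libraries correlated best with their own number. At the depth of ANKRD1, 18 counts over the WT libraries limit what can be seen.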

Other observations

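S100A6, a calcium-binding protein that interacts with annexins and lies near S100A4 and S100A10 on chromosome 1, went the other way from S100A10. It stood at 3.36 ± 0.274 CPM in WT and 0.15 ± 0.091 in ZNF263 KO (SD, n = 3), a log2 difference of -4.38. Pooled, 13 counts in ZNF263 KO stood against 191 in WT, a ratio of 0.0466 with an exact 95% interval of 0.0244 to 0.0816. No ZNF263 KO library reached the count minimum of the filter (highest 0.233 CPM), which S100A6 passed only through other groups. These values therefore describe the counts and are no test of a difference. In ZNF263 KO + ZIC2 OE, S100A6 stood at 0.394 ± 0.143 CPM, and in ZNF263 OE at 3.69 ± 0.213. S100A4 rose with ZIC2 against ZNF263 KO, from 4.19 to 6.34 CPM (0.60, edgeR adjusted p = 0.00330).

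NT5E, a nucleotidase on the cell surface, stood at 1.10 ± 0.389 CPM in WT, 0.914 ± 0.192 in ZNF263 KO and 2.33 ± 0.449 with ZIC2 (SD, n = 3), a pooled ratio of 2.58 (1.92 to 3.47) between the last pair. MYOF, a membrane repair protein, was 4.02 CPM in WT, 6.44 in ZNF263 KO and 7.91 with ZIC2, a log2 difference from WT of 0.98 in the last (edgeR adjusted p = 9.33e-07). NOV, which encodes CCN3, was the 1 of 4 other CCN genes that passed the filter. It passed through other groups, since no ZNF263 KO + ZIC2 OE library held more than 8 counts. With ZIC2 its log2 difference from WT was -1.16, on 20 against 47 pooled counts, a ratio of 0.442 (0.248 to 0.761). The edgeR call of NOV as lower there describes the counts and is no test of a difference. The groups overlapped (0.347 to 1.05 CPM in WT, 0.331 to 0.405 with ZIC2), and DESeq2 did not call it.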
